A study of Mus musculus with 2 samples.

Results

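The genes described here build and hold together the chromosomes of meiosis, and they were measured in a tissue that does not undergo it, the mouse retina. The 10 genes, Sycp1, Sycp2, Sycp3, Syce1, Syce2, Hormad1, Smc1b, Stag3, Tex11 and Rec8, were picked by name, and their 14 transcript rows were taken from a table of 30608 rows and 23356 gene symbols. A gene's level is the sum over its transcripts of FPKM, a fragment count scaled to transcript length and library size, and genes at or near 0 were kept. The study compared retinas dissected at postnatal day 15 from 2 genotypes, with 1 library each. The control was Dnmt1 flox/flox, Dnmt3a flox/flox and Dnmt3b flox/flox without Rx-Cre, and the triple mutant carried the same floxed alleles with Rx-Cre. Both libraries therefore share the floxed alleles of the 3 DNA methyltransferase genes, and only the mutant carries Cre, driven by regulatory sequence of the eye-field gene Rx. The labels give the strain as C57BL/6 in the first and C57BL/7 in the second. They do not say how many animals went into a library. With 1 library per genotype no test between genotypes was possible, and each difference below is one between 2 libraries.

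In meiosis, sister chromatids are held by a cohesin ring with meiosis-specific subunits (SMC1B, STAG3, REC8), and the chromatids are organised as loops along an axis of cohesin, SYCP2, SYCP3 and HORMAD1. The synaptonemal complex then zips the axes of paired homologues together: SYCP1 forms the transverse filaments that span the gap, and SYCE1 and SYCE2 belong to the central element in its middle. Somatic cells use the related cohesin subunits SMC1A, STAG1, STAG2 and RAD21 and keep many meiotic genes silent. Promoter DNA methylation and a Polycomb complex that holds the DNA-binding proteins E2F6, MGA and MAX are both known repressors of such genes. E2F6 recognises sites with the core TCCCGC, and MGA and MAX recognise the E-box CACGTG.

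RefSeq promoter windows (250 bases before to 50 after a start site, GRCm38.p6) were available for 9 of the 10 genes, all but Tex11, as 11 windows. Hormad1 and Syce2 each gave 2 of these windows. Those of Hormad1, with starts at 95559677 and 95559679, are almost the same sequence, so counts by window include it 2 times. Most were rich in CpG, the dinucleotide at which mammalian DNA is methylated. The median window of these genes held 21 CpG (range 10 to 33), against a median of 7 (quartiles 3 and 20) over the 32851 windows of the table. The ratio of observed to expected CpG had a median of 0.713 (range 0.363 to 1.08), against 0.384 (quartiles 0.176 and 0.750) over all windows. Sycp2 had the fewest CpG, 10, followed by Syce1 with 14 and Sycp3 with 15.

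The E-box CACGTG reads the same on both strands. It was found in a window of 5 of the 9 genes (Sycp1, Sycp3, Hormad1, Stag3 and Syce2). By window this was 6 of the 11, beside 7.15% of all windows. TCCCGC on either strand was found in 7 of the 9 genes, all but Syce1 and Sycp2. By window this was 9 of the 11, beside 20.0% of all windows. Each of the 5 genes with an E-box held TCCCGC in the same window. Both motifs were in 6 of the 11 windows, 2 of them the overlapping windows of Hormad1, beside 1.99% of all windows. Sycp3 and Hormad1 each held 2 E-boxes, a number reached by 0.594% of all windows. A cyclic AMP response element, TGACGTCA, was found in none of the 11 windows and in 1.79% of all windows. A motif chosen after the sequences were seen was TCTCGCGA on either strand. It was found in Sycp1, Smc1b and Stag3, 3 of the 11 windows, and in 0.995% of all windows. In Sycp1 and Smc1b it was matched on both strands, in overlapping places, and in Stag3 on 1 strand. These matches are letters in a window, and nothing here measured binding or methylation at them. Each motif holds a CG, and the windows of these genes were mostly rich in CpG. CpG content was not held equal when they were set beside all windows.

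The sequences before the start sites of 5 genes follow, 5′ to 3′ on the strand of the gene, as examples of windows with both motifs (Sycp1, Sycp3, Hormad1), with TCTCGCGA and TCCCGC (Smc1b) and with none of them (Syce1). They are from RefSeq, GRCm38.p6, and end before the most upstream start annotated by RefSeq or GENCODE M21. Capitals mark the matches to the E-box, the E2F core and TCTCGCGA. An E2F core on the other strand appears as GCGGGA, and overlapping matches run together.
Sycp1 (chr3:102936101-102936300, minus strand): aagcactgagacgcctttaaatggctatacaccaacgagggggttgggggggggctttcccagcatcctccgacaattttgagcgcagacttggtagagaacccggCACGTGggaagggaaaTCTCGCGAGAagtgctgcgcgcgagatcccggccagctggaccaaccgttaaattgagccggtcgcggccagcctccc
Smc1b (chr15:85131965-85132077, minus strand): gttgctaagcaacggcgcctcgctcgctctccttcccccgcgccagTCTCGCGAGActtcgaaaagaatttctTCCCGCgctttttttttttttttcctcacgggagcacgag
Sycp3 (chr10:88459369-88459568, plus strand): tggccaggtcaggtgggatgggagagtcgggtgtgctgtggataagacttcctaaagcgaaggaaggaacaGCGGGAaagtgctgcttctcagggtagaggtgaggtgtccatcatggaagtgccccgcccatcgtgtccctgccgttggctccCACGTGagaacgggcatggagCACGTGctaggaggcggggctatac
Hormad1 (chr3:95559477-95559676, plus strand): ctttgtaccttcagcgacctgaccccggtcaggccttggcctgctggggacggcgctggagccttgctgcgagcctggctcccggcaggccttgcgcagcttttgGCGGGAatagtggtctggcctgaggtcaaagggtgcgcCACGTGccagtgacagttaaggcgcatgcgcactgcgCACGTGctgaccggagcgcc
Syce1 (chr7:140787855-140788054, minus strand): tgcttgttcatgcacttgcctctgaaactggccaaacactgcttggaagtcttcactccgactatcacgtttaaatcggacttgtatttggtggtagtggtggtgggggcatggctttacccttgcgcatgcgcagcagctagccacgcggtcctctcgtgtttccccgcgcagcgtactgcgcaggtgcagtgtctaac

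Distances here count from the RefSeq start site. In Sycp1 the E-box began 94 bases before the start site and the TCTCGCGA matches, 1 on each strand, 78 and 76 bases before it. A TCCCGC match began at base 3 of the gene, past the end of the sequence shown. In Sycp3 the E-boxes began 64 and 43 bases before the RefSeq start (88459587). The Sycp3 sequence shown ends earlier, before the GENCODE start (88459569). In Hormad1 the E-boxes began 57 and 20 bases before the first RefSeq start (95559677). Stag3 had its E-box farther out, 170 bases before the start, and a TCCCGC match across the start site itself. Syce2 has 2 annotated starts. The window of the second held an E-box 88 bases before the start and 2 TCCCGC matches, whereas the window of the first held TCCCGC alone. Rec8 had a single TCCCGC match, 38 bases before the start. GENCODE M21 starts Stag3 (138280240) and Rec8 (55618037) upstream of the RefSeq starts (138280509 and 55618166). The matches named here for Stag3 and Rec8 therefore lie inside the GENCODE genes. So do those of the second Syce2 start, which is downstream of the first.

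**Figure D1:**
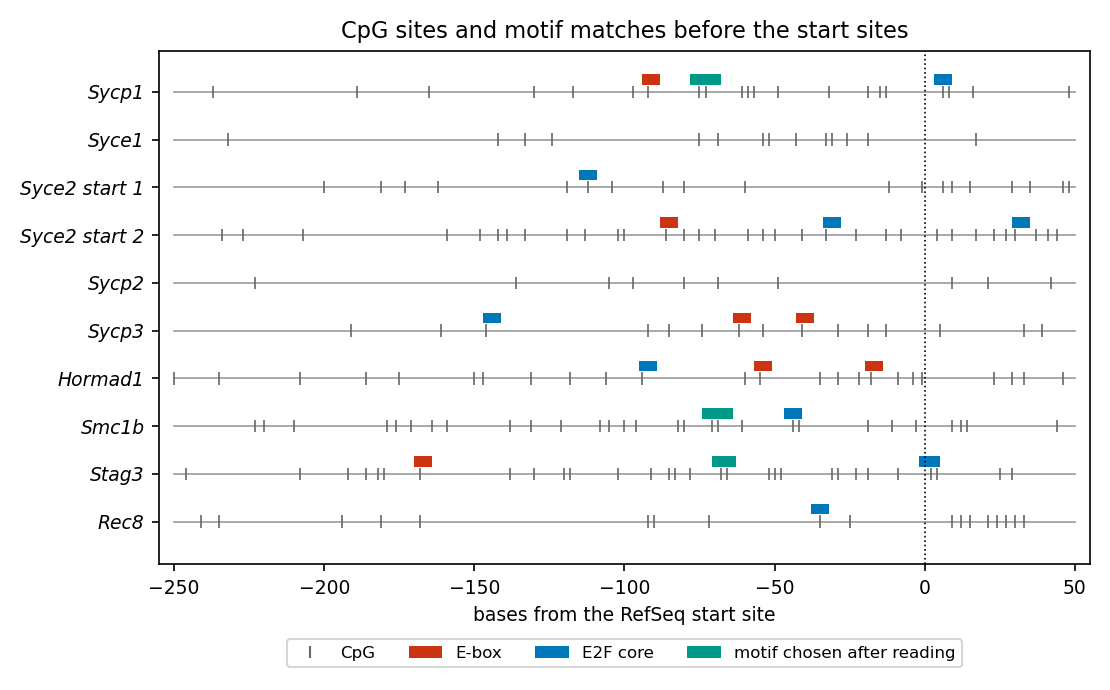
Each line is the promoter window of a gene, with distance from the RefSeq start site on the x axis in bases. Grey ticks are CpG sites and coloured blocks are motif matches (green for TCTCGCGA); E-boxes lie in Sycp1, Sycp3, Hormad1, Stag3 and the second start of Syce2, and Syce1 and Sycp2 hold no match.

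The targeted genes were lower in the mutant library but present: Dnmt1 had 21.7 FPKM in control and 11.6 in mutant retina, Dnmt3a 87.4 and 56.0, and Dnmt3b 1.03 and 0.827. These are RNA levels over whole transcripts, and recombination of the floxed alleles was not measured here. All 10 meiotic chromosome genes had a higher value in the mutant library than in the control, Hormad1 by about 1 fragment, whereas 40.3% of the 23350 symbols used did, as did 50.6% of the 16159 symbols of at least 0.1 FPKM in a library. The 10 values summed to 8.44 FPKM in control and 22.3 in mutant retina. Their median was 0.0750 FPKM in control and 0.877 in mutant retina. In the control 6 of the 10 were under 0.1 FPKM, 2 of them listed at 0, and in the mutant 2 were under 0.1. Without Syce2, Stag3 and Rec8, the 3 genes of at least 1 FPKM in the control, the sum was 0.616 FPKM in control and 4.70 in mutant retina. These are low levels. By the spacing of the lowest values, 1 FPKM was worth about 47.8 fragments per kilobase in control and 54.9 in mutant retina. Intervals of 95% given below rest on fragments recovered that way and cover counting error only.

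Size was measured as log2 of the mutant to control ratio after adding 1 FPKM to both, which understates the ratio of low genes, and a log2 ratio of at least 1 counted as past the size rule. On that scale 2 of the 10 genes, Syce1 and Rec8, passed the size rule upward and 0 downward. Of all symbols, 1.05% were higher by it and 0.377% lower. With a pseudocount of 0.1 FPKM, nearer to the level of these genes, 6 were higher (Sycp1, Sycp2, Sycp3, Syce1, Tex11 and Rec8) and 0 lower, beside 3.13% and 1.35% of all symbols. With a pseudocount of 5 FPKM only Rec8 was higher and 0 were lower, beside 0.394% and 0.141%. Of the 7 that were under 1 FPKM in the control, 5 were higher and 0 lower at a pseudocount of 0.1, beside 5.23% and 1.28% of the 10415 symbols under 1 FPKM. A symbol below 0.1 FPKM in both libraries, such as Hormad1 or Smc1b, cannot pass the size rule at that pseudocount. Only 16159 of the 23350 symbols reached 0.1 FPKM in a library. The shares at 0.1 therefore understate those among symbols able to pass. The median log2 ratio of the 10 was 0.44 at a pseudocount of 1 and 1.15 at 0.1, and the median of all symbols was 0 at both.

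**Figure D2:**
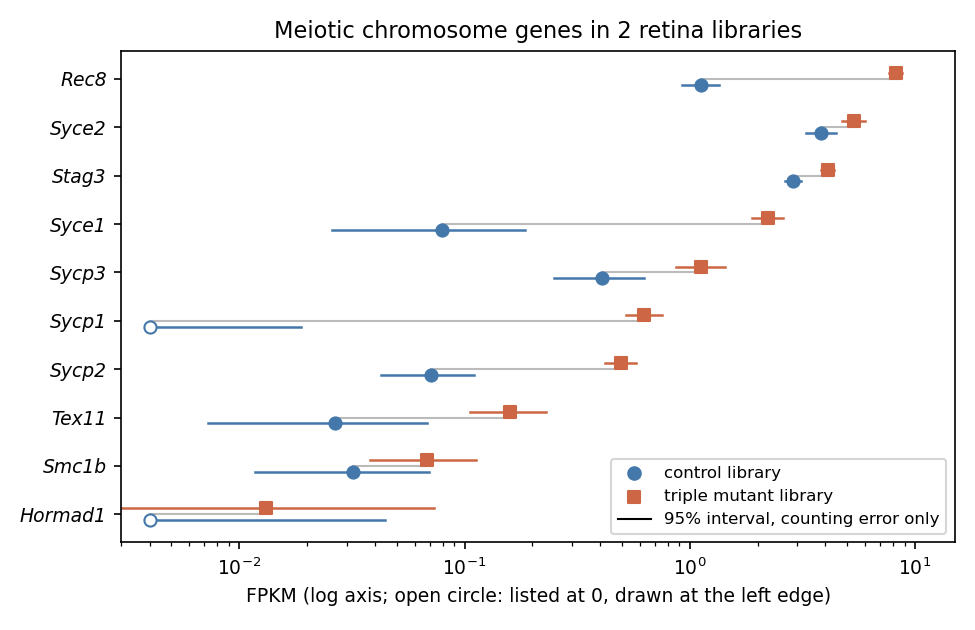
Level of each gene in FPKM on a log axis in the control library (circles) and the triple mutant library (squares), with horizontal bars for the 95% interval from counting error. An open circle is a gene listed at 0, and its bar ends at the floor of 3 fragments instead of a 95% limit. The gaps are widest for Sycp1, Syce1, Rec8 and Sycp2, and the bars of Hormad1 and Smc1b overlap between the libraries.

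As plain ratios of mutant to control, the synaptonemal complex genes held both the largest and the smallest that could be computed. With 1 FPKM added, the cohesin gene Rec8 had the largest log2 ratio, 2.12 against 1.57 for Syce1. Syce1, a central element gene, had 0.0792 FPKM in control, about 5 fragments, and 2.21 in mutant retina, about 165 fragments. That is a ratio of 28.0 (11.7 to 87.2). Sycp1, the transverse filament gene, had 0.629 FPKM in the mutant, about 115 fragments, and was listed at 0 in the control. A floor of 3 fragments over its length is 0.0188 FPKM in the control, so the mutant value was far above what a count of 0 allows, and no ratio is given. Syce2, the other central element gene, was the highest of the 10 in the control, at 3.84 FPKM, and had 5.35 in the mutant, a ratio of 1.39 (1.15 to 1.69). Syce1 and Syce2, of the same structure, differed from each other in both level and ratio in these libraries.

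Syce2 is the only one of the 10 with more than 1 transcript above 0. The coding transcript NM_027954 had 1.25 FPKM in control and 1.44 in mutant retina. The noncoding NR_031759 had 1.72 and 2.11 FPKM, and the short coding NM_001168244 had 0.859 and 1.79. NM_001168246 was listed at 0 in both. Each of the 3 detected transcripts was higher in the mutant, and the short coding one had the largest ratio. The split among transcripts of 1 gene is an estimate by the authors' software.

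Among the axis genes, Sycp2 had 0.0708 FPKM in control and 0.494 in mutant retina, a ratio of 6.97 (4.31 to 11.9). Its partner Sycp3, with which it forms the axis filaments, had 0.407 and 1.12 FPKM, a ratio of 2.76 (1.65 to 4.81). Both lay higher in the mutant by more than their counting error. Sycp3 shares 660 exon bases with Chpt1, a phospholipid synthesis gene on the opposite strand that had 5.45 FPKM in control and 5.29 in mutant retina. No source used here says whether counting was by strand, and without it fragments from that stretch cannot be told apart. Hormad1, the axis protein that recruits the break machinery and monitors synapsis, had 0.0131 FPKM in the mutant, about 1 fragment, and was listed at 0 in the control. It was under the floor of 3 fragments in both libraries (0.0444 and 0.0387 FPKM), so no difference was detectable at this depth. Hormad1 was 1 of 5 genes with both an E-box and TCCCGC. The others of that group, Sycp1, Sycp3, Stag3 and Syce2, were above their floors in the mutant. So were Syce1 (2.21 FPKM, floor 0.0401) and Sycp2 (0.494 FPKM, floor 0.00972), whose windows held neither motif. Sycp3 was above its floor in the control too (0.407 FPKM, floor 0.0603), as were Stag3, Syce2, Syce1 and Sycp2. Of all 10 genes, 8 were above their floors in the control, all but Sycp1 and Hormad1, and 9 in the mutant. Whether the motifs bear on these levels was not tested.

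Of the meiotic cohesin genes, Rec8, which encodes the kleisin that closes the ring, had 1.12 FPKM in control and 8.20 in mutant retina, a ratio of 7.32 (6.01 to 8.98). About 939 mutant fragments lay behind that value, the most of any of the 10. It moved from the third highest of the 10 in the control to the highest in the mutant, where it made up 36.7% of their summed FPKM. Stag3, the subunit that binds the ring's kleisin, had 2.87 and 4.09 FPKM, a ratio of 1.42 (1.28 to 1.58). Smc1b, the meiotic form of the hinge and ATPase subunit, had 0.0319 and 0.0681 FPKM, about 6 and 15 fragments, a ratio of 2.14 (0.783 to 6.72). The interval of Smc1b holds 1, and the difference was not resolved at this depth. Within a single complex, then, Rec8 and Stag3 stood at several FPKM in the mutant and Smc1b stayed below 0.1.

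Tex11, an X-linked gene whose product promotes crossovers and binds the synaptonemal complex, had 0.0267 FPKM in control, about 4 fragments, and 0.160 in mutant retina, about 28 fragments. The ratio was 5.99 (2.09 to 23.5). All of it came from NM_031384, and NM_001167997 was listed at 0 in both libraries. It passed the size rule only with a pseudocount of 0.1, at a log2 ratio of 1.04.

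In order of level, the control ran Syce2, Stag3, Rec8, Sycp3, Syce1, Sycp2, Smc1b and Tex11, with Sycp1 and Hormad1 at 0. Counting intervals of neighbours in that order overlapped from Syce1 (0.0257 to 0.185) through Sycp2 (0.0427 to 0.111), Smc1b (0.0117 to 0.0694) and Tex11 (0.00727 to 0.0683), so that part of the order is unresolved. The mutant ran Rec8, Syce2, Stag3, Syce1, Sycp3, Sycp1, Sycp2, Tex11, Smc1b and Hormad1. Sycp1 (0.520 to 0.755) and Sycp2 (0.418 to 0.579) were not separated there, nor were Tex11 (0.106 to 0.231) and Smc1b (0.0381 to 0.112), or Smc1b and Hormad1 (0.000331 to 0.0729).

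**Figure D3:**
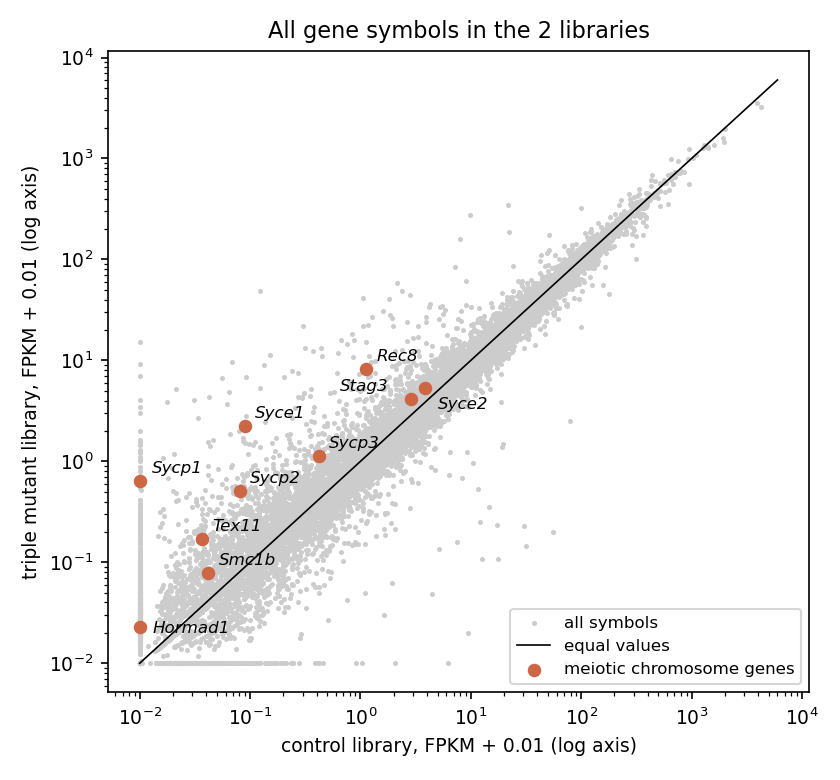
Each point is a gene symbol, with FPKM + 0.01 in the control library on the x axis and in the triple mutant library on the y axis, both log axes; the line marks equal values. The 10 meiotic chromosome genes (large points) all lie above the line, with Sycp1, Syce1 and Rec8 at the upper edge of the cloud at their control level and Hormad1 in its low corner.

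The authors' deposited table gives its own comparison of the 2 libraries for each transcript. Sycp1 was the only one of the 10 genes it called significant, at a p-value of 5e-05 and a q-value of 0.0184, among 69 such rows of 30608. For Rec8 the authors' deposited table gives a p-value of 0.0006 and a q-value of 0.111. For Sycp2 the authors' deposited table gives 0.0153 and 0.795, and for Syce1 0.0443 and 0.999. Stag3 was given 0.313 and 0.999, and Sycp3 0.570 and 0.999. The Syce2 transcripts NM_001168244, NM_027954 and NR_031759 had p-values of 0.562, 0.924 and 0.884 there, each with a q-value of 0.999. Tex11, Smc1b and Hormad1 were among the rows it did not test. These p-values were computed without replicates of either genotype.

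The meiotic cohesin genes could be set beside the somatic subunits they replace, since FPKM is per length. Rad21, the somatic kleisin, had 62.9 FPKM in control and 64.0 in mutant retina. Rec8 was 1.78% of Rad21 in the control and 12.8% in the mutant. Smc1a had 35.2 and 36.5 FPKM, and Smc1b was 0.0905% and 0.186% of it. Stag2 had 34.5 and 37.9 FPKM, and Stag3 was 8.33% and 10.8% of it. Stag1 had 14.7 and 15.1 FPKM, and Stag3 was 19.5% and 27.1% of that. Of 17 somatic cohesin, loader and release genes, 0 passed the size rule in either direction at a pseudocount of 1 or 0.1. Their median log2 ratio was 0.04, with the sister-separation inhibitor Pttg1 (20.8 and 30.7 FPKM) the highest at a pseudocount of 1. At 0.1 the highest was Cdca5, which encodes the cohesion protector sororin (0.142 and 0.354 FPKM). The other meiotic kleisin gene, Rad21l, had 0.0138 and 0.0711 FPKM, below 0.1 in both.

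Other meiotic genes were compared by lists drawn up for this purpose. Of 6 further synaptonemal complex, axis and cohesin genes, 0 passed the size rule at a pseudocount of 1 and 1 was higher at 0.1. This was Tex12, a central element gene, listed at 0 in the control and at 0.861 FPKM in the mutant. Syce3, of the same element, was listed at 0 in both libraries, and Hormad2 had 0.122 and 0.180 FPKM. The highest of the 6, 4930447C04Rik, a further central element gene also known as Six6os1, had 6.67 and 6.14 FPKM. Central element genes therefore included one not detected, one slightly lower in value and others that were higher. Of 7 genes of double strand break formation, 0 passed the size rule at either pseudocount, and 5 were lower in value in the mutant. Among them the meiotic histone methyltransferase gene Prdm9 had 5.97 and 4.55 FPKM, and Mei4 had 0.384 and 0.328. Spo11, which encodes the break-making enzyme, was at 0 and 0.0245 FPKM.

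Of 22 recombination and crossover genes, 1 was higher by the size rule at a pseudocount of 1, the crossover gene Prr19, with 0.455 FPKM in control and 2.23 in mutant retina. At 0.1, 6 were higher and 1 lower. The crossover regulator Cntd1 had 0.797 and 1.80 FPKM, and the germ cell repair gene Tex15 had 0.340 and 0.853. The lower one was Ccnb1ip1, a crossover ubiquitin ligase gene, with 0.413 and 0.0394 FPKM. The meiotic recombinase gene Dmc1 had 0.223 and 0.200. The median log2 ratio of the recombination genes of at least 0.1 FPKM was 0.27 at a pseudocount of 0.1, against 1.15 for the 10 chromosome genes, which include those below 0.1. Of 6 telomere attachment genes 0 passed at either pseudocount, with the nuclear envelope gene Sun1 at 30.1 and 34.6 FPKM. Of 10 genes of meiotic entry and regulation, 0 passed at 1 and 2 were higher at 0.1, Taf7l (0.0232 and 0.358 FPKM) and Stk31 (0.00670 and 0.166). Stra8, which encodes the retinoic acid-induced gatekeeper of meiosis, was listed at 0 in both libraries.

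**Figure D4:**
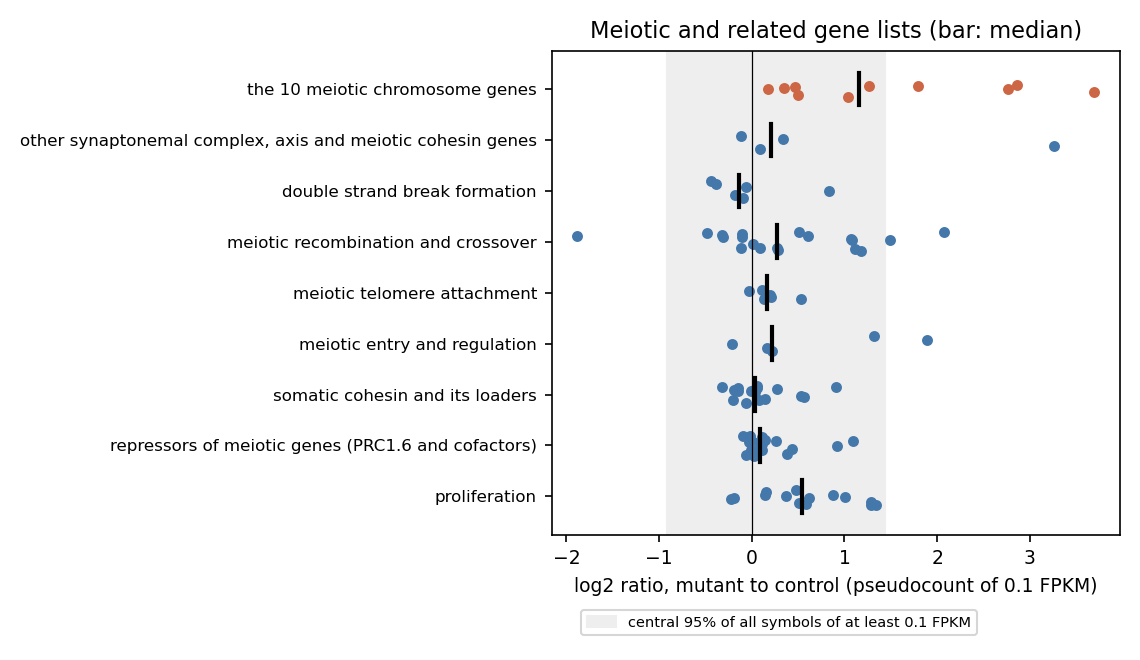
Each point is a gene, with its log2 ratio of mutant to control (pseudocount of 0.1 FPKM) on the x axis and its list on the y axis; black bars are medians and the shaded band, from -0.92 to 1.43, holds the central 95% of symbols of at least 0.1 FPKM. Genes below 0.1 FPKM in both libraries are shown only for the 10 chromosome genes, whose points all lie to the right of 0, 4 of them past the band.

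Known repressors of meiotic genes, the Polycomb complex with E2F6 and cofactors, were mostly level. Of 19, 1 passed the size rule upward and 0 downward, and the median log2 ratio was 0.08. The higher one was E2f6 itself, with 10.5 FPKM in control and 22.5 in mutant retina, followed by the deacetylase gene Hdac1 (4.58 and 8.78). Its partners Mga (13.7 and 12.8), L3mbtl2 (12.8 and 12.7) and Pcgf6 (9.99 and 9.76) differed little.

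Markers of other cells moved between the libraries as well. Of 15 germ cell markers, 2 were higher by the size rule, Dazl (0.0815 and 2.79 FPKM) and Ddx4 (0.360 and 3.06), and 8 were lower in value in the mutant. At a pseudocount of 0.1, 2 were higher and 2 lower, the spermatid genes Prm1 (0.431 and 0.151 FPKM) and Tnp1 (0.233 and 0). The spermatid markers Prm2 and Acrv1 were at 0 in both libraries, and the egg coat gene Zp3 had 0.0178 and 0. The summed level of the germ cell markers was 6.76 and 12.5 FPKM. Of 14 proliferation genes 0 passed at a pseudocount of 1, 4 were higher at 0.1 and 12 were higher in value, with a sum of 34.6 and 46.5 FPKM. Among them Top2a had 0.192 and 0.609 FPKM and Cdk1 0.229 and 0.705. Of 9 microglia and macrophage markers, 8 were higher by the size rule, and their sum was 26.005 and 142 FPKM. Lens markers (sum 136 and 0.647 FPKM) and pigment epithelium markers (47.8 and 3.11) were lower. The part of any of these cells in the levels of the 10 genes was not tested, and in bulk tissue more cells of a type and more RNA per cell cannot be told apart. Among the retina's own neurons, 6 rod markers summed to 9990 FPKM in control and 8828 in mutant retina. Gnat1 (4266 and 3211 FPKM) and Sag (3931 and 3512) made up most of that sum, whereas the rod transcription factor genes Nrl (441 and 692) and Nr2e3 (273 and 443) were higher in value. Of 5 cone markers 4 were lower by the size rule, with a sum of 803 and 351 FPKM. None of 5 ganglion cell markers passed it, but all 5 were lower in value, with a sum of 434 and 280 FPKM.

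The genes on either side offered a comparison within the same stretch of chromosome. Of 22 neighbouring or overlapping genes in the table, 2 passed the size rule upward and 0 downward at pseudocounts of 1 and 0.1, beside 1.05% and 3.13% of all symbols upward, and their median log2 ratio was 0.01. The neighbours of Sycp1 were Tspan2, with 3.04 and 2.11 FPKM and Nr1h5, with 0.00824 and 0.0141. Beside Syce1, Cyp2e1 was listed at 0 in both libraries and Zfp941 had 5.58 and 3.83 FPKM. The neighbours of Sycp2 were Ppp1r3d, with 3.07 and 2.35 FPKM, and Phactr3, with 9.04 and 7.51. None of these 6 neighbours passed the size rule.

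Rec8 had a neighbour past the size rule. It lies on chromosome 14 (55618037 to 55625395, plus strand, GENCODE M21 on GRCm38), 8007 bases past the end of Irf9, which encodes the DNA-binding subunit of the interferon-activated factor ISGF3 and is transcribed in the same direction. Irf9 had 5.44 FPKM in control and 34.5 in mutant retina, a log2 ratio of 2.46 beside 2.12 for Rec8. On the other side Ipo4, on the opposite strand, ends 5 bases from Rec8 and had 21.04 and 24.1 FPKM. Whether the levels of Rec8 and Irf9 are linked was not tested. The other neighbour past the size rule was Ctss, a lysosomal protease gene of microglia and macrophages, at 9.11 and 35.3 FPKM, next to Hormad1 (chromosome 3, 95559677 to 95587671, plus strand), which stayed at about 1 fragment. By the GENCODE starts, Smc1b starts 114 bases from Ribc2 on the opposite strand (0.332 and 0.426 FPKM). Stag3 starts 235 bases from Gpc2 (5.26 and 7.14). The log2 ratio was 0.38 for Gpc2 and 0.39 for Stag3, so this pair had nearly equal ratios.

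**Figure D5:**
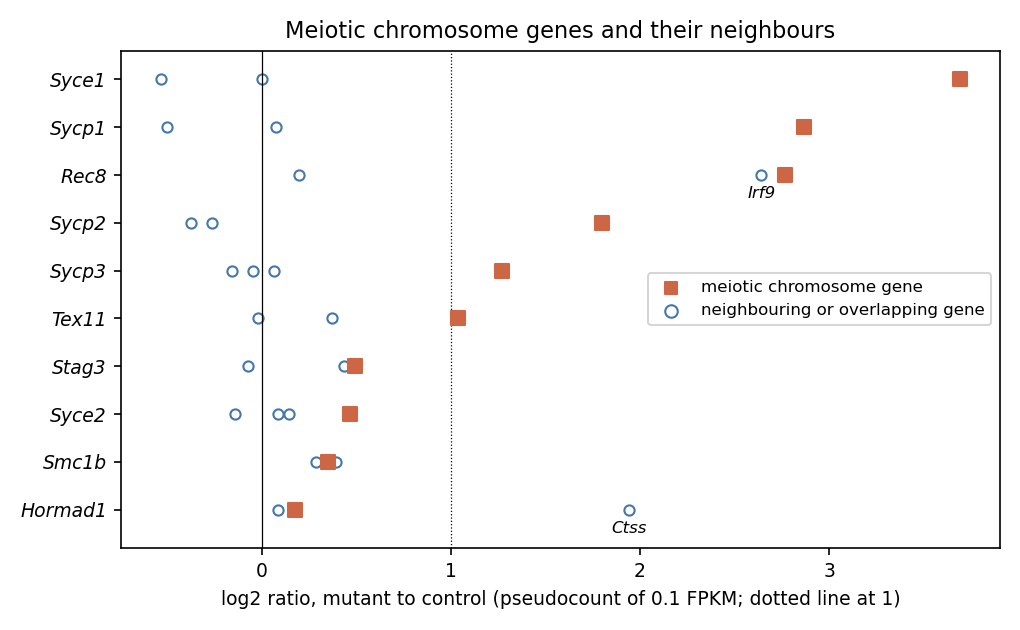
Log2 ratio of mutant to control (x axis, pseudocount of 0.1 FPKM) for each meiotic chromosome gene (squares) and the genes beside or overlapping it (open circles), ordered by the ratio of the meiotic gene. Only Irf9, beside Rec8, and Ctss, beside Hormad1, lie past the dotted line at 1 among the 22 neighbours.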

How the data were processed

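Total RNA from postnatal day 15 retinas was sequenced in 1 control and 1 triple mutant library, grouped by the genotype labels. Reads were processed with TopHat2 2.0.8 and Cuffdiff 2.1.1 on mm10, per the submitters' processing notes. Both deposited tables give an FPKM for each RefSeq transcript, per the file headers. Strandedness and read layout are not given. The deposited tables also hold the authors' log2 fold change, p-value and q-value per transcript, per the file headers. FPKM was summed by symbol in the table with gene symbols, leaving out 6 symbols with failed or excessive-data rows (23350 used). No test was run, since each group has 1 library.

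Depth was estimated from genes with 1 transcript of 3000 bases or more. Within 10% of a step, 155 of 204 low values of the control (76.0%) and 143 of 197 of the mutant (72.6%) were whole multiples. The step and a fragment length of 100 bases were chosen together. They maximised the excess of the share over that of random values, times the square root of the number of values. Transcript lengths are from GENCODE M21. Ratio intervals are exact binomial (SciPy 1.17.1). The depth fit and size rule were tested on simulated data. Promoter windows are from RefSeq.

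All 10 genes were named, with up to 4 genes per list of at least 0.1 FPKM with the largest log2 ratio, the neighbours and the 3 targeted genes. Other genes named were chosen after their values were seen. The genes and lists were chosen with earlier results of these data known.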

Additional observations from a re-analysis of the deposited data

How the results depend on the processing

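Each log2 ratio that could be computed was above 0, and the count of lower genes was 0, under the 6 alternatives tried. The log2 ratio of Hormad1, computed in 5 of them, was at most 0.18. The count of higher genes and the median log2 ratio depended on the pseudocount: 2 genes and 0.44 at 1 FPKM, 6 and 1.15 at 0.1, and 1 (Rec8) and 0.18 at 5. Among the 5 genes of at least 1 FPKM in 1 library the count was 2 and the median 0.59. The count of higher genes was also 2 in the second deposited table, with the largest transcript only, and with mutant values centred on the median of expressed genes (whose log2 ratio had a median of -0.0024), and the median was 0.47, 0.44 and 0.44. With the largest transcript only, the log2 ratio of Syce2 was 0.19, against 0.39 for its summed transcripts. No paired analysis was possible because each genotype has 1 library, and for the same reason no library could be left out. Depth limits Hormad1 and Smc1b most.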

Other observations

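Across the whole table, symbols were also grouped by the motifs in their RefSeq windows, a grouping chosen after the sequences of the 10 genes were seen and given as values only. Of 6752 symbols under 1 FPKM in the control, with the 10 genes left out, 5.18% were higher in the mutant by a log2 ratio of at least 1 at a pseudocount of 0.1. Among the 374 of these with CACGTG the share was 8.82% (33 genes), and among the 6378 without it 4.97%. Among the 73 with CACGTG and TCCCGC in 1 window it was 12.3% (9 genes), and among the 27 with TCTCGCGA 18.5% (5 genes). Over symbols of any control level these differences were small or of the other sign: the share was 2.99% for all, 3.18% with CACGTG, 2.98% without it, 2.91% with CACGTG and TCCCGC in 1 window and 2.36% with TCTCGCGA. The groups are small, they share genes, and CpG content was not held equal between them. Symbols below 0.1 FPKM in both libraries, which cannot pass at that pseudocount, were not left out of any group.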
